A study of Homo sapiens with 22 samples.

Results

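ATF4 and 9 genes that act with or downstream of it were followed in the mRNA of acute myeloid leukemia (AML) cells treated with FP54, a heterobifunctional degrader that recruits the VHL ubiquitin ligase to FTO, an RNA demethylase that removes m6A. The 10 genes were ATF4, ATF5, ATF3, DDIT3, CEBPG, TRIB3, CHAC1, SESN2, DDIT4 and NUPR1, out of 20411 protein-coding genes in each table. They were picked by symbol as a group that moved in opposite directions in 2 cell lines, so the FP54 against DMSO values of both lines chose them. Their values are therefore given as a description, without a test.

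MOLM-13 and NB4, both established human AML cell lines of wild-type genotype per the labels, were exposed to 2 μM FP54 or to the solvent DMSO for 48 hours, with 3 mRNA-seq libraries for each line and treatment. These 12 of the 22 samples were used, and the other samples, 6 of m6A-seq and 4 of polysome-seq, were not used here. Each line has its own table of RPKM (a read density scaled to gene length and to the library total). That the second table is from NB4 is known from its name only. No source says that the libraries of a group came from separate cultures, so the p-values given for other genes measure the spread between libraries, which may be technical. Library totals recovered from the values ranged from 5829730 to 19191055 reads in MOLM-13. In NB4 they were 20654055 to 22344266 reads with DMSO and 10595647 to 13071303 reads with FP54, so depth differed with treatment there. The part of this depth difference in the NB4 changes was not tested. FP54 replicate 2 of MOLM-13 was the shallowest library.

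The line labels were checked on markers. HOXA9 and MEIS1, homeobox genes of MLL-rearranged leukemia, lay at 19.1 to 25.4 RPKM and at 6.05 to 8.40 RPKM in MOLM-13. Both were below 1 RPKM in every NB4 library. HOXA10, listed with them as a marker of MOLM-13, went the other way. It lay at 6.64 to 9.76 RPKM in MOLM-13 and at 11.3 to 14.1 RPKM in NB4. PTPRC, CD33, SPI1 and CEBPA, which mark myeloid cells, were present in every library. Granule protein genes differed between the lines, and some of them moved with the treatment. MPO, the granule peroxidase, went from 16.1 RPKM with DMSO to 3.79 RPKM with FP54 in MOLM-13 (log2 −2.06, limma adjusted p = 0.000985) and from 2170.2 to 1116 RPKM in NB4 (−0.96, adjusted p = 1.28e-05). PRTN3 and AZU1 were called lower with FP54 in NB4 (−1.93 and −0.52) and did not pass the test in MOLM-13 (−0.25 and 0.27). ELANE was at 122 to 240 RPKM in MOLM-13, where it did not pass the test (log2 −0.03, limma adjusted p = 0.938), and at 0.218 RPKM or less in NB4. PTPRC, the leukocyte phosphatase CD45, was called higher with FP54 in both lines (0.55 and 0.71). The part of such a shift in cell state in the changes given below was not tested. Of 9 lymphoid, erythroid and epithelial markers, the summed level was 5.75 to 10.3 RPKM in MOLM-13, mainly from KRT18. The sum was 27.2 to 36.3 RPKM in NB4, mainly from KRT18, EPCAM and CD3D. HBB was at or near 0 in both lines. In NB4 this sum was higher with FP54 (34.4 to 36.3 RPKM) than with DMSO (27.2 to 30.4 RPKM), and its part in the results was not tested. FTO mRNA, whose protein is the target of FP54, did not pass the test in MOLM-13 (1.01 ± 0.0767 RPKM with DMSO and 1.01 ± 0.118 with FP54, SD, n = 3; limma adjusted p = 0.989) and was lower with FP54 in NB4 (2.73 ± 0.180 and 2.03 ± 0.0782 RPKM; log2 fold change −0.41, limma adjusted p = 0.0119).

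ATF4 is a basic leucine zipper (bZIP) transcription factor of the integrated stress response. Kinases that sense amino acid shortage, misfolded proteins, heme shortage or double-stranded RNA phosphorylate the translation factor eIF2, which lowers general translation but allows more translation of the ATF4 mRNA, so that ATF4 protein can rise with little change of its transcript. ATF4 then switches on genes of amino acid synthesis, amino acid transport and tRNA charging, together with further bZIP factors and with regulators that feed back on the response. It commonly binds DNA as a dimer with a C/EBP family protein at composite sites called C/EBP-ATF response elements.

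Sites of this kind were looked for in RefSeq promoter windows (GRCh38.p14, 250 bases before to 50 bases after each start), which were at hand for 9 of the 10 genes. NUPR1 had no entry. The element core TGATGNAA, read on both strands, was present in 3 of these 9 genes, namely ATF3, CEBPG and CHAC1, and in 16 of 37 other ATF4 target genes with an entry, against 558 of all 15270 genes (3.65%). The 3 sites of the group and the sites of AARS1, SLC7A1 and HERPUD1, target genes that recur below, are printed with 8 bases on either side and the core in capitals. Each runs 5′ to 3′ in the direction of the core, to show which letters vary.
ATF3: ggtcaggaTGATGGAAggctgtca
CEBPG: gcggcgtcTGATGCAAcctgccgg
CHAC1: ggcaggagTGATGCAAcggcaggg
AARS1: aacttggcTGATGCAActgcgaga
SLC7A1: cgcactgcTGATGAAAcctggcgc
HERPUD1: gcacgggcTGATGCAAcccgccgc

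The ATF3 site lay at chr1:212565208-212565231 on the plus strand, upstream of the gene in GENCODE v44. The CEBPG site lay at chr19:33374063-33374086 on the plus strand, in an intron of the longer GENCODE models. The CHAC1 site lay at chr15:40953254-40953277 on the minus strand, within a UTR exon of a GENCODE transcript that starts further upstream. The AARS1 window (chr16:70289678-70289701, plus strand) and the SLC7A1 window (chr13:29595666-29595689, minus strand) lay in UTR exons, and the HERPUD1 window (chr16:56931958-56931981, minus strand) lay upstream of its gene. Of other motifs searched on both strands, the AP-1 site TGANTCA, which occurs in 6.16% of the 21519 promoter windows, was found for ATF5 and DDIT3. The hexamer TATAAA of the TATA box, in 9.43% of windows, was found 27 and 30 bases upstream of the ATF4 starts and 230 bases upstream of a downstream ATF3 start, not the one near the printed site. The cAMP response element TGACGTCA (2.28% of windows) and the composite ER stress response element (0.107% of windows) had no match in the windows of these 9 genes. A match is a description of letters in a window, and binding was not measured.

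Across the group, 5 genes were lower with FP54 in MOLM-13 and higher with FP54 in NB4 with no overlap between the treatments in either line: ATF5, ATF3, CEBPG, TRIB3 and SESN2. The fitted changes of CHAC1 and ATF4 had opposite signs as well, but CHAC1 overlapped in MOLM-13 and ATF4 overlapped in both lines. DDIT3, DDIT4 and NUPR1 had positive fitted changes in both lines. These are the genes just inside and just outside the opposite pattern for which the group was chosen. In MOLM-13 all 10 genes passed the filter of a mean RPKM of at least 1, and in NB4 all except NUPR1 did. In MOLM-13, 5 genes were lower and 1 was higher without overlap, beside 17.0% and 20.2% of all 9710 genes tested. In NB4, 9 were higher without overlap, NUPR1 included, beside 34.3% of all 9853 genes tested, and none was lower without overlap, beside 26.2%. Since these contrasts chose the genes, nothing is read from the counts.

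**Figure D1:**
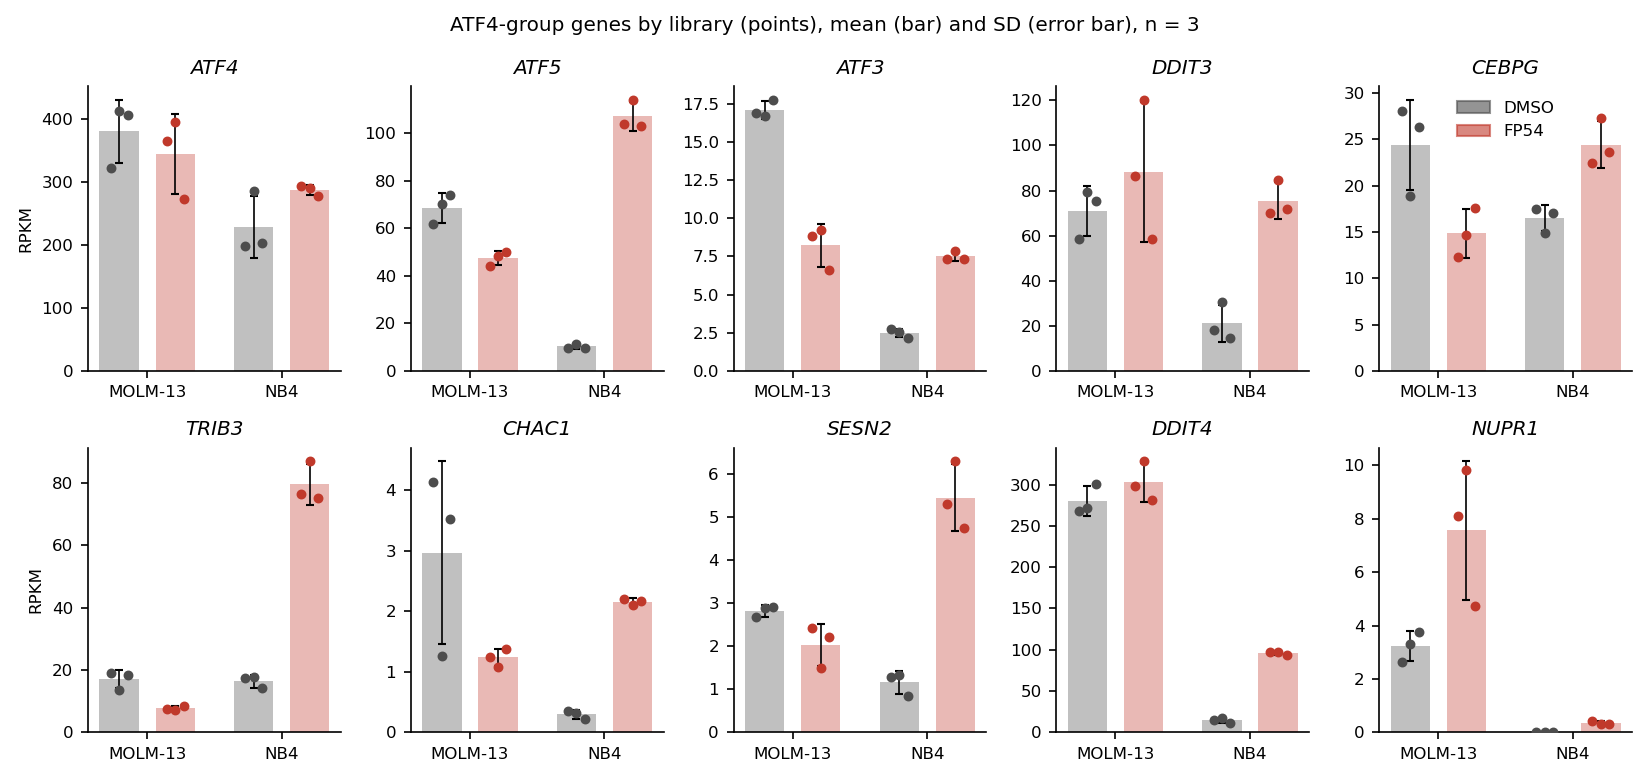
RPKM (y axis, linear from 0, with its own scale in each panel) of the 10 genes in MOLM-13 and NB4 cells with DMSO (grey) or FP54 (red). Points are single libraries, bars are means and error bars are SDs of 3 libraries. ATF5 runs from 61.9 to 74.1 RPKM down to 44.2 to 50.05 RPKM in MOLM-13 and from 9.81 to 11.5 RPKM up to 103 to 114 RPKM in NB4.

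The bZIP factors come first. ATF4 (chr22:39519695-39522683, plus strand, GENCODE v44 on hg38) read 323, 414 and 407 RPKM in the MOLM-13 DMSO libraries and 366, 396 and 273 RPKM with FP54. In NB4 it read 198, 286 and 203 RPKM with DMSO and 294, 290.4 and 279 RPKM with FP54. The treatments overlapped in both lines, since the highest NB4 DMSO library exceeded the lowest NB4 FP54 library. The mean was 0.905 times the DMSO mean in MOLM-13, a log2 fold change of −0.15 (SE 0.19) on the log2(RPKM + 0.1) scale used for all fitted changes, and 1.26 times in NB4, a log2 fold change of 0.35 (SE 0.14). The MOLM-13 value turned to 0.0069 when FP54 replicate 3 was left out. In bulk RNA a change of the RNA per cell cannot be told apart from a change in which cells made up the culture, here and for every gene below.

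ATF5 is a close relative of ATF4 whose translation responds to eIF2 phosphorylation in a similar way. It read 61.9, 70.3 and 74.1 RPKM with DMSO and 44.2, 48.3 and 50.05 RPKM with FP54 in MOLM-13, and 9.81, 11.5 and 9.83 RPKM with DMSO and 104, 114 and 103 RPKM with FP54 in NB4. Every FP54 library was below every DMSO library in MOLM-13 and above every one in NB4. The mean fell to 0.691 times the DMSO mean in MOLM-13 (log2 −0.53, SE 0.12) and rose 10.3-fold in NB4 (log2 3.36, SE 0.09). At the pseudocount of 0.1 RPKM this was the largest fitted change in NB4 among the 10 genes. At a pseudocount of 0.01 RPKM the NB4 change of NUPR1 was larger, 4.91 against 3.37 for ATF5. ATF5 (chr19:49928702-49933935, plus strand) shares 640 exonic bases with coding genes on the opposite strand, NUP62 and IL4I1 among them. The sources used here do not say whether reads were counted by strand. NUP62 was lower with FP54 in NB4 (21.5 ± 1.17 to 11.5 ± 0.732 RPKM) and IL4I1 was higher (1.495 ± 0.0936 to 3.29 ± 0.417 RPKM), and in MOLM-13 NUP62 was at 25.3 ± 2.93 and 19.4 ± 1.03 RPKM and IL4I1 at 34.5 ± 2.61 and 36.1 ± 1.74 RPKM with DMSO and FP54. With DMSO in NB4, NUP62 was above ATF5 (10.4 ± 0.984 RPKM). The part of shared reads in the ATF5 values was not tested.

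ATF3 is a stress-induced bZIP factor that can repress as well as activate its targets. It read 16.9, 16.7 and 17.8 RPKM with DMSO and 8.81, 9.26 and 6.58 RPKM with FP54 in MOLM-13. In NB4 it read 2.73, 2.54 and 2.17 RPKM with DMSO and 7.36, 7.85 and 7.31 RPKM with FP54. The groups were apart in both lines, with FP54 below DMSO in MOLM-13 and above it in NB4. The means moved 0.481-fold (log2 −1.06, SE 0.15) and 3.02-fold (log2 1.56, SE 0.11). With FP54 the lines held similar levels, 8.22 ± 1.43 RPKM in MOLM-13 and 7.51 ± 0.298 RPKM in NB4 (SD, n = 3).

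DDIT3 encodes CHOP, the C/EBP family partner linked to cell death under lasting stress. It read 58.4, 79.2 and 75.2 RPKM with DMSO and 86.2, 120.4 and 58.5 RPKM with FP54 in MOLM-13. In NB4 it read 18.1, 30.5 and 14.7 RPKM with DMSO and 69.8, 84.9 and 71.8 RPKM with FP54. In MOLM-13 a pair of FP54 libraries lay above the DMSO range and the other at its lower end. In NB4 all FP54 libraries lay above all DMSO libraries, with a mean 3.58 times that of DMSO (log2 1.90, SE 0.24) against 1.25 times in MOLM-13 (log2 0.27, SE 0.26). DDIT3 (chr12:57516588-57521737, minus strand) shares 518 exonic bases with other coding genes. ENSG00000285133 overlaps its locus on the same strand, and MARS1 and MBD6 overlap it on the opposite strand. MARS1 and MBD6 were called higher with FP54 in NB4 as well. MARS1 went from 34.02 ± 0.220 to 48.6 ± 2.66 RPKM and MBD6 from 4.44 ± 0.702 to 8.86 ± 0.0564 RPKM. In MOLM-13 MARS1 was called lower (17.3 ± 2.63 to 10.4 ± 1.62 RPKM) and MBD6 did not pass the test. The part of shared reads in the DDIT3 values was not tested.

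CEBPG, a C/EBP protein without a transactivation domain, is a dimer partner of ATF4. It read 28.0, 18.8 and 26.3 RPKM with DMSO and 12.3, 14.6 and 17.5 RPKM with FP54 in MOLM-13, and 17.5, 14.9 and 17.1 RPKM with DMSO and 22.4, 27.3 and 23.6 RPKM with FP54 in NB4. The groups did not overlap in either line, although in MOLM-13 the highest FP54 library and the lowest DMSO library were close. The log2 fold changes were −0.71 (SE 0.19) and 0.56 (SE 0.10). Among the genes separated in opposite directions in MOLM-13 and NB4, CEBPG showed the smallest difference between the lines, 1.27 on the log2 scale.

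The feedback regulators and effectors follow. TRIB3 encodes a pseudokinase that binds ATF4 and dampens its activity. It read 19.1, 13.7 and 18.3 RPKM with DMSO and 7.49, 7.30 and 8.49 RPKM with FP54 in MOLM-13. In NB4 it read 17.3, 17.9 and 14.1 RPKM with DMSO and 76.6, 87.1 and 75.1 RPKM with FP54. With DMSO the lines stood at 17.0 ± 2.89 and 16.5 ± 2.04 RPKM, and with FP54 they stood at 7.76 ± 0.639 and 79.6 ± 6.52 RPKM, a ratio of 10.3 between NB4 and MOLM-13. The fitted changes were −1.11 (SE 0.15), the largest decrease of the group in MOLM-13, and 2.27 (SE 0.11) in NB4.

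CHAC1 encodes an enzyme that degrades glutathione. It read 4.13, 1.26 and 3.51 RPKM with DMSO and 1.24, 1.09 and 1.38 RPKM with FP54 in MOLM-13. The DMSO replicate 2 value lay among the FP54 values, so the groups overlapped, and leaving out single libraries moved the log2 fold change of −1.04 (SE 0.41) between −1.55 and −0.73. In NB4 CHAC1 read 0.354, 0.320 and 0.218 RPKM with DMSO and 2.21, 2.09 and 2.16 RPKM with FP54, without overlap and with a 7.24-fold mean. Its log2 fold change of 2.52 (SE 0.17) there was 1.28 with a pseudocount of 1 RPKM and 2.84 with 0.01 RPKM, because the DMSO values were low.

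SESN2 and DDIT4, the latter also known as REDD1, restrain the growth kinase complex mTORC1. SESN2 read 2.67, 2.89 and 2.91 RPKM with DMSO and 2.42, 1.49 and 2.21 RPKM with FP54 in MOLM-13, and 1.29, 1.34 and 0.853 RPKM with DMSO and 5.32, 6.30 and 4.75 RPKM with FP54 in NB4. Both pairs of groups were apart, with mean ratios of 0.722 (log2 −0.48, SE 0.21) and 4.70 (log2 2.15, SE 0.19). In MOLM-13 the highest FP54 library and the lowest DMSO library were close, at 2.42 and 2.67 RPKM. The lowest SESN2 value there, 1.49 RPKM, was 30 reads in the shallowest library. Leaving out single libraries moved the MOLM-13 log2 fold change of SESN2 between −0.61 and −0.28. DDIT4 read 268, 272 and 301 RPKM with DMSO and 299, 328 and 281 RPKM with FP54 in MOLM-13, where the groups overlapped (log2 0.11, SE 0.14). In NB4 DDIT4 read 15.2, 17.6 and 11.7 RPKM with DMSO and 97.4, 97.3 and 93.7 RPKM with FP54, a 6.49-fold mean (log2 2.71, SE 0.14). Even so, DDIT4 with FP54 in NB4 stayed at 0.318 times its level with FP54 in MOLM-13.

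NUPR1 encodes a small chromatin-associated stress protein and was the exception in MOLM-13. Its locus (chr16:28532708-28539008, minus strand) shares exonic bases with a long non-coding RNA gene on the same strand, ENSG00000289754. It read 2.64, 3.31 and 3.77 RPKM with DMSO and 8.11, 9.84 and 4.74 RPKM with FP54 there, higher with FP54 without overlap (log2 1.15, SE 0.28). In NB4 it had 1, 0 and 0 reads with DMSO and 25, 21 and 24 reads with FP54, which is 0.428, 0.328 and 0.333 RPKM. The ratio of read rates was 128, with an exact 95% interval of 22.1 to 5107 that covers counting error only. Genes silent in blood moved in these libraries too. The mean of 416 olfactory receptor genes was 0.0496 to 0.0549 RPKM in the NB4 FP54 libraries against 0.00168 to 0.00372 RPKM in the NB4 DMSO libraries, and in the FP54 libraries NUPR1 was 5.97 to 8.63 times that mean, with 10 to 20 of the 416 at or above it. The part of this background in the NUPR1 value was not tested. CHAC1, the next lowest gene, had 0 olfactory receptor genes at or above it in any NB4 library.

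**Figure D2:**
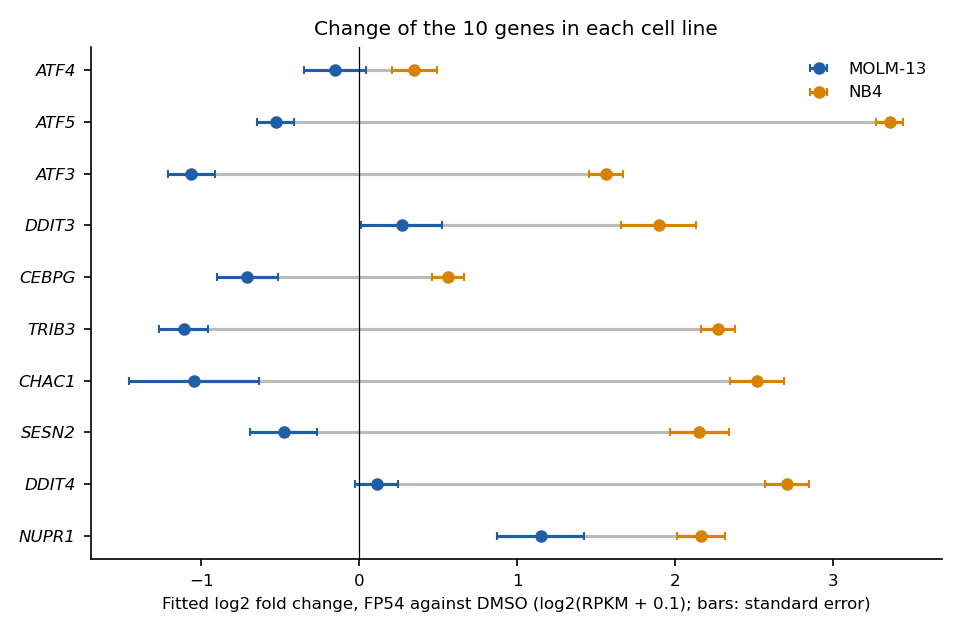
Fitted log2 fold change of each gene (x axis, FP54 against DMSO on the log2(RPKM + 0.1) scale) in MOLM-13 (blue) and NB4 (orange), with error bars of 1 standard error from 6 libraries per line. The NB4 point lies to the right of the MOLM-13 point for all 10 genes, from 0.50 apart for ATF4 to 3.89 apart for ATF5. The NB4 point of NUPR1 depends on the pseudocount.

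Some libraries held the highest or lowest value of their group for several of the genes. In a group of 3 some library must hold each extreme, so this is a description. In MOLM-13, DMSO replicate 2 held the lowest ATF3, CEBPG, TRIB3 and CHAC1 and the highest ATF4 and DDIT3 of its group. FP54 replicate 3 held the lowest ATF4, ATF3, DDIT3, DDIT4 and NUPR1 and the highest ATF5, CEBPG, TRIB3 and CHAC1. FP54 replicate 2, the shallowest library, held the highest ATF4, ATF3, DDIT3, DDIT4 and NUPR1 and the lowest TRIB3, CHAC1 and SESN2. In NB4, DMSO replicate 2 held the highest ATF4, ATF5, DDIT3, TRIB3, SESN2 and DDIT4, and FP54 replicate 2 the highest ATF5, ATF3, DDIT3, CEBPG, TRIB3 and SESN2. The part of depth in this order of libraries was not tested.

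Mean levels with the solvent alone differed between the lines, except for TRIB3, whose means were close. With DMSO, MOLM-13 held 18.9 times the NB4 level of DDIT4, 9.97 times that of CHAC1, 6.89 times that of ATF3 and 6.62 times that of ATF5. The ratio was 3.36 for DDIT3, 2.43 for SESN2, 1.66 for ATF4, 1.48 for CEBPG and 1.03 for TRIB3. With FP54, NB4 was instead above MOLM-13 for TRIB3 (10.3-fold), SESN2 (2.68-fold), ATF5 (2.26-fold), CHAC1 (1.74-fold) and CEBPG (1.65-fold), and NB4 was at 0.913, 0.854 and 0.834 times MOLM-13 for ATF3, DDIT3 and ATF4. The tables were made separately, so these ratios are set side by side without a test.

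**Figure D3:**
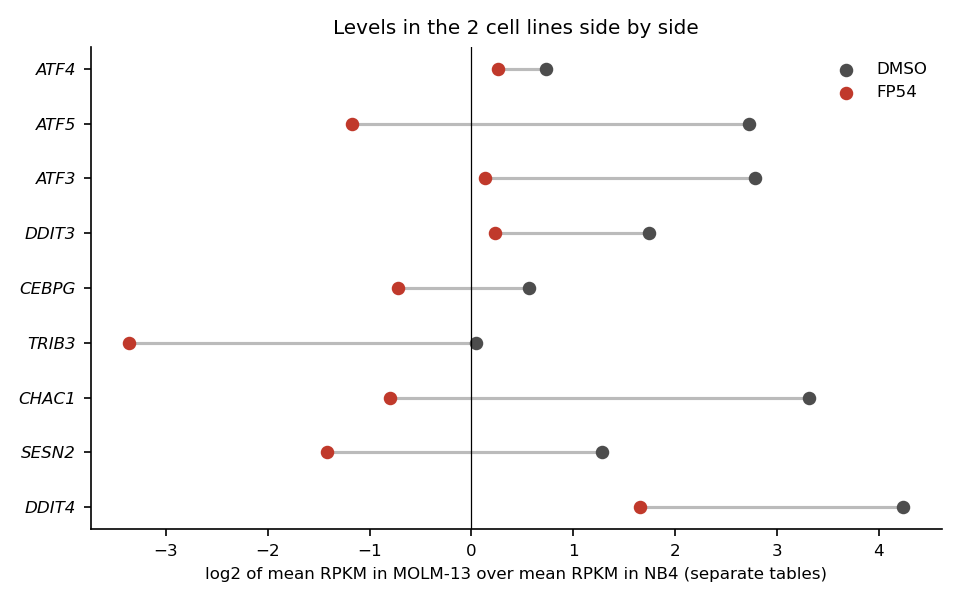
Log2 ratio of the mean RPKM in MOLM-13 to that in NB4 (x axis) for 9 of the genes with DMSO (grey) and FP54 (red), from means of 3 libraries in separate tables. NUPR1 is left out because of its single read with DMSO in NB4. Every grey point lies to the right of 0, from TRIB3 at a ratio of 1.03 to DDIT4 at 18.9, and every red point lies to the left of its grey point.

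Within a library RPKM allows genes to be ordered per length. ATF4 had the highest mean of the 10 genes with either treatment in either line, and overlapped the next, DDIT4, in MOLM-13 with FP54. In MOLM-13 with DMSO, DDIT4 followed at 280.2 ± 17.7 RPKM, then DDIT3 and ATF5, whose libraries overlapped. CEBPG came next, then ATF3 and TRIB3, which overlapped with each other, and NUPR1, CHAC1 and SESN2 at the end, which overlapped. In NB4 with DMSO, DDIT3, CEBPG, TRIB3 and DDIT4 formed a run in which neighbours overlapped, at means of 21.1, 16.5, 16.5 and 14.8 RPKM. With FP54 in NB4, ATF5 stood second at 107 ± 6.09 RPKM, ahead of DDIT4 at 96.1 ± 2.09 RPKM, with no overlap. TRIB3 and DDIT3 came next and overlapped.

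The other ATF4 target genes were described from a list of 50, of which 46 passed the filter in each line. In MOLM-13, 24 of these 46 were called lower and 0 higher, where called means an unadjusted limma p under 0.01 together with a log2 change of 0.5 or more. At an unadjusted p below 0.05, 1 target (KLHL24) was higher in MOLM-13, and limma-voom on recovered reads called 1 higher. Over all genes tested 9.04% were called lower and 9.3% higher. In NB4, 32 of 46 were called higher and 1, ALDH18A1, lower, against 18.6% and 10.7% of all genes tested. The median log2 fold change of the list was −0.70 in MOLM-13, where the median of all genes was 0.00, and 0.78 in NB4, where it was 0.07. The members of the list were written with earlier results of these data known, so the counts do not add independent evidence of direction.

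The targets with the largest decreases in MOLM-13 were GDF15 and STC2, both secreted stress factors, ADM2, a peptide hormone, SLC7A1, a carrier of basic amino acids, and INHBE, an inhibin subunit. GDF15 read 9.41, 10.9 and 9.75 RPKM with DMSO and 2.62, 1.40 and 2.59 RPKM with FP54 in MOLM-13 (log2 −2.19, limma adjusted p = 0.00112). In NB4 GDF15 had 0 reads in the DMSO libraries and 60, 64 and 71 reads with FP54, which is at least 39.5-fold higher against a floor of 3 reads per library. STC2 read 14.5, 12.5 and 18.3 RPKM with DMSO and 2.39, 4.07 and 3.76 RPKM with FP54 in MOLM-13 (log2 −2.13, adjusted p = 0.00103), and 0.937, 0.797 and 0.486 RPKM and 13.5, 13.9 and 14.04 RPKM in NB4 (log2 4.09, adjusted p = 1.27e-07). In both genes the treatments were apart in both lines, with mean levels in NB4 with FP54 (2.65 and 13.8 RPKM) below the MOLM-13 DMSO means (10.02 and 15.1 RPKM) in the separate tables.

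ADM2 moved from 3.35 ± 0.717 to 1.03 ± 0.116 RPKM in MOLM-13 (limma adjusted p = 0.00247) and from 0.190 ± 0.0618 to 4.07 ± 0.291 RPKM in NB4 (adjusted p = 1.46e-07). INHBE moved from 2.03 ± 0.518 to 0.702 ± 0.275 RPKM in MOLM-13 (adjusted p = 0.0127) and from 0.0675 ± 0.0458 to 4.02 ± 0.525 RPKM in NB4 (adjusted p = 1.73e-07). ADM2, INHBE, STC2 and GDF15 had NB4 DMSO means under the filter of 1 RPKM. High FP54 values alone let them enter the NB4 test, so their NB4 p-values are conditioned on that rise. SLC7A1 had log2 fold changes of −1.45 in MOLM-13 (adjusted p = 0.0111) and 0.76 in NB4. VLDLR, a lipoprotein receptor, was called higher in NB4, from 1.07 ± 0.175 to 12.1 ± 0.770 RPKM (adjusted p = 5.03e-08). In MOLM-13 VLDLR was at 8.08 ± 0.189 and 7.93 ± 0.333 RPKM and did not pass the test. ALDH18A1, an enzyme of proline synthesis, was the decrease in NB4 (log2 −0.55, adjusted p = 0.00110).

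The difference between the lines was tested as an interaction of line and treatment in a limma model of the 12 libraries. It passed an adjusted p below 0.05 in 44 of 46 targets, each with the NB4 change above the MOLM-13 change, while 14.2% of the 8849 genes tested in both lines passed. The remaining targets were ALDH18A1 and KLHL24. The list was written with earlier results of these data known, so this count adds no independent evidence. The median difference over the list was 1.36 on the log2 scale, against 0.08 over all genes. The targets called lower in MOLM-13 and also called higher in NB4 numbered 15, where 0.768% of all genes tested in both lines had this pair of calls. They included GDF15, STC2, INHBE and ADM2, with differences of 6.97, 6.22, 6.09 and 5.45 on the log2 scale, the first of which rests on a group without reads. Their NB4 DMSO means were 0, 0.740, 0.0675 and 0.190 RPKM, so only high FP54 values let them pass the filter there. These differences are therefore given as a description. Among the 15 genes with this pair of calls, 11 had a promoter entry, and 3 of the 11 held the element core.

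**Figure D4:**
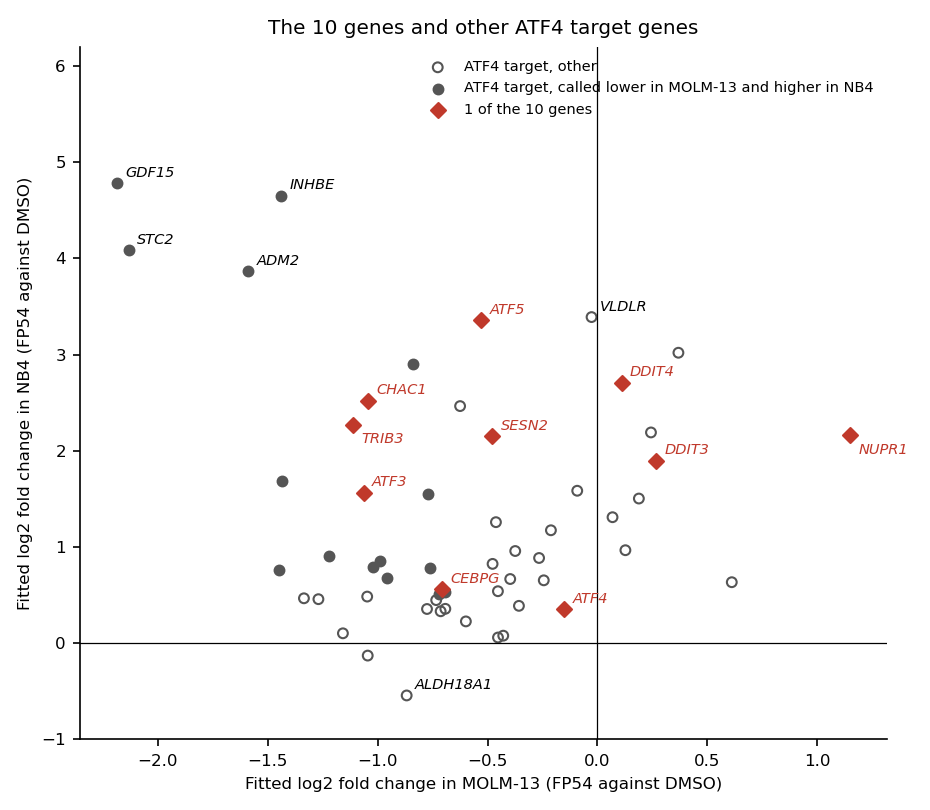
Fitted log2 fold change with FP54 in MOLM-13 (x axis) and NB4 (y axis) for 46 ATF4 target genes (circles, filled for the 15 called lower in MOLM-13 and higher in NB4) and the 10 chosen genes (red diamonds). Most circles lie left of 0 and above 0, with 40 fitted changes negative in MOLM-13 and 44 positive in NB4, and NUPR1, DDIT3 and DDIT4 lie to the right of 0.

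Genes upstream of ATF4 were examined through 18 genes of the eIF2 pathway, all of which passed the filter in both lines. Among them PPP1R15A is also an ATF4 target and stands in the target list as well. Over all genes 9.04% were called lower and 9.3% higher in MOLM-13, and 10.7% and 18.6% in NB4. In MOLM-13, 3 were called lower, namely EIF2B3 (log2 −1.01, limma adjusted p = 0.0281), a subunit of the exchange factor eIF2B, EIF2S2 (−0.80, adjusted p = 0.0107), the beta subunit of eIF2, and GCN1 (−0.68, adjusted p = 0.0311), the activator of the kinase GCN2. OMA1, a mitochondrial protease of the relay to the kinase HRI, was called higher (0.58, adjusted p = 0.0468). In NB4, EIF2S1, EIF2B5 and EIF2B3 were called lower, by −0.67, −0.61 and −0.56 on the log2 scale. PPP1R15A (GADD34), the stress-induced phosphatase subunit that reverses eIF2 phosphorylation, read 23.5, 34.3 and 18.8 RPKM with DMSO and 70.6, 81.2 and 71.5 RPKM with FP54 in NB4 (log2 1.58, adjusted p = 4.64e-05). In MOLM-13 PPP1R15A read 127, 234 and 193 RPKM with DMSO and 171, 241 and 116 RPKM with FP54, overlapping. EIF2AK3, the kinase PERK, and PPP1R15B, the constitutive phosphatase subunit, were called higher in NB4 by 0.62 and 0.57. The interaction passed for 4 of the 18, PPP1R15A, PPP1R15B, EIF2AK3 and GCN1, each with the NB4 change above. The list medians were −0.14 in MOLM-13 and −0.27 in NB4. Phosphorylation of eIF2 and ATF4 protein were not measured here.

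Other bZIP factors, from which ATF4 and its relatives draw partners, were mixed. Of 32 tested in MOLM-13, 6 were called lower and 2 higher, and of 32 tested in NB4, 3 were called lower and 9 higher. The shares over all genes were 9.04% and 9.3% in MOLM-13 and 10.7% and 18.6% in NB4. FOSL1, an AP-1 subunit, showed the largest decrease in MOLM-13 (7.27 ± 2.19 to 1.66 ± 0.708 RPKM, log2 −2.12, limma adjusted p = 0.00454). JUN, the core AP-1 subunit, read 14.8, 22.9 and 15.3 RPKM with DMSO and 8.30, 8.38 and 6.15 RPKM with FP54 in MOLM-13, and 19.6, 23.2 and 17.9 RPKM with DMSO and 45.1, 41.6 and 42.8 RPKM with FP54 in NB4. JUN was thus lower in MOLM-13 (adjusted p = 0.00543) and higher in NB4, without overlap in either. BATF3 was called lower in MOLM-13 (log2 −1.52, adjusted p = 0.0399), with overlapping libraries, and higher in NB4 (1.53, adjusted p = 2.77e-05). CEBPB, a C/EBP activator and itself a target of ATF4, was called higher in NB4 (11.7 ± 2.903 to 32.7 ± 3.42 RPKM, adjusted p = 3.00e-05), as was NFE2L1, the factor of proteasome genes (log2 1.40, adjusted p = 5.11e-07).

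CEBPD went the other way, with 48.3, 32.7 and 47.0 RPKM with DMSO and 65.9, 55.4 and 67.4 RPKM with FP54 in MOLM-13 (log2 0.57, limma adjusted p = 0.0441), and 56.8, 80.9 and 61.1 RPKM with DMSO and 35.9, 28.6 and 30.2 RPKM with FP54 in NB4 (−1.06, adjusted p = 0.000114). BATF (−0.96) and CEBPE (−0.78), a granulocyte factor, were the other decreases in NB4, and DBP (0.64) was the other increase in MOLM-13. The interaction passed for 16 of 31 factors tested in both lines, with the NB4 change above in 12 and below in 4.

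Paralogs of the feedback regulators were read for all members of that list. Of the 4 tested in MOLM-13 (TRIB1, SESN1, SESN3 and CHAC2), limma and limma-voom each called 0, and 1, CHAC2, was lower at an unadjusted p below 0.05 (2.17 ± 0.629 to 1.05 ± 0.464 RPKM, limma adjusted p = 0.0605). In NB4, SESN3 (3.93 ± 0.820 to 1.81 ± 0.163 RPKM, limma adjusted p = 0.000350), CHAC2 (19.0 ± 3.59 to 10.0 ± 0.951 RPKM, adjusted p = 0.000352) and TRIB1 (4.57 ± 0.308 to 2.95 ± 0.298 RPKM, adjusted p = 0.00132) were called lower, while their relatives SESN2, CHAC1 and TRIB3 were higher there. TRIB2 was called higher in NB4, with 8.18, 6.32 and 6.31 RPKM with DMSO and 24.8, 22.1 and 23.4 RPKM with FP54 (log2 1.75, adjusted p = 1.39e-06), and was under 0.1 RPKM in every MOLM-13 library. SESN1 was not called in NB4 (2.54 ± 0.446 and 3.199 ± 0.156 RPKM, adjusted p = 0.0662). These are 3 lower and 1 higher of 5 tested in NB4, against 10.7% and 18.6% of all genes. DDIT4L and NUPR2 did not pass the filter in either line. The interaction passed for SESN3 alone among the 4 tested in both lines, with the NB4 change below that of MOLM-13 (difference −1.58, adjusted p = 0.00588).

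Further lists share regulators or functions with the group. Of p53 target genes, 7 of 22 tested were called lower and 0 higher in MOLM-13, against 9.04% and 9.3% of all genes, led by EDA2R (log2 −1.65), AEN (−1.37) and TRIAP1 (−0.71). EDA2R passed the filter there through its DMSO libraries, with means of 1.58 RPKM with DMSO and 0.435 RPKM with FP54. It had 21, 10 and 23 reads in the MOLM-13 FP54 libraries. At an unadjusted p below 0.05, 2 were higher, and limma-voom called 0 higher. In NB4, 7 of 17 were called higher, against 18.6% of all genes, led by the cell cycle inhibitor CDKN1A (1.99 ± 0.453 to 7.98 ± 0.588 RPKM, log2 1.97, limma adjusted p = 5.36e-06), BTG2 (1.67) and the death receptor TNFRSF10B (1.45). AEN (−0.92) and TRIAP1 (−0.50) were called lower in NB4 too. CDKN1A itself read 219, 206 and 198 RPKM with DMSO and 164, 124 and 145 RPKM with FP54 in MOLM-13, without overlap. The interaction passed for 7 of 17.

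Chaperones and targets of the other ER stress branches had calls in both directions in NB4. In MOLM-13, 3 of 23 were called lower, against 9.04% of all genes, DNAJB11 (log2 −0.95), XBP1 (−0.75) and HYOU1 (−0.68), and 0 higher by limma, by limma-voom or at an unadjusted p below 0.05. In NB4, 5 of 22 were called lower, against 10.7% of all genes, among them SDF2L1 (−1.21), CALR (−0.57) and SEC61B (−0.55), and 3 higher, against 18.6%, EDEM1 (1.24), SEL1L (1.02) and HERPUD1 (0.96), of which HERPUD1 is also an ATF4 target. The interaction passed for 5 of 22. Of mTORC1 and its inputs, through which SESN2 and DDIT4 act, 3 of 17 were called lower in MOLM-13, against 9.04% of all genes, SEH1L (−0.99), MLST8 (−0.57) and RPTOR (−0.53), and 1 of 16, RRAGC (0.51), was called higher in NB4, where 18.6% of all genes were. In the other direction limma called 0 in either line, with 3 higher in MOLM-13 and 5 lower in NB4 at an unadjusted p below 0.05, and limma-voom called 1 and 0. The interaction passed for 2 of 16.

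**Figure D5:**
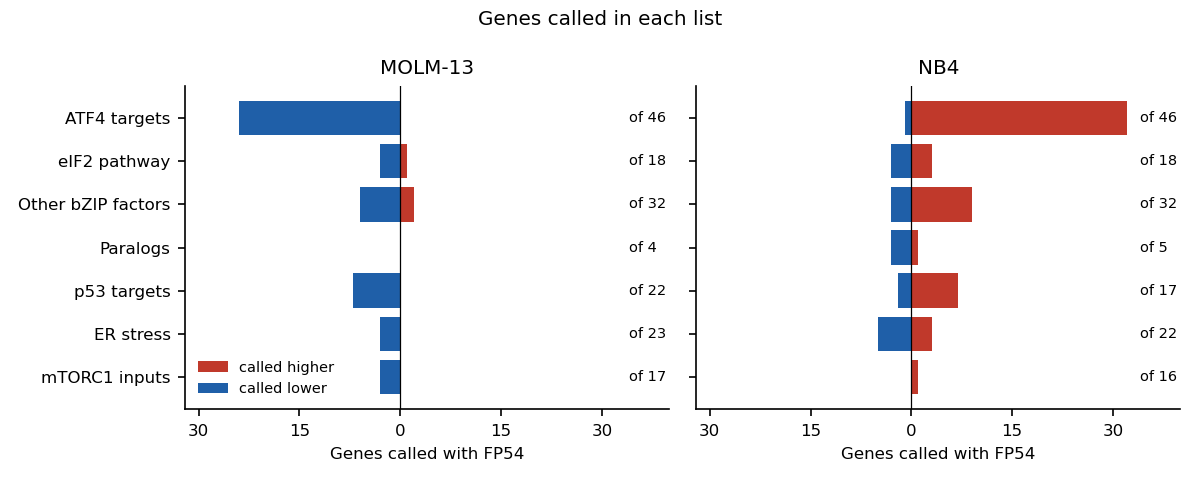
Number of genes called lower (blue, to the left) or higher (red, to the right) with FP54 in each list (y axis) in MOLM-13 and NB4, with the number tested at the right of each panel. The ATF4 target list holds 24 lower calls of 46 in MOLM-13 and 32 higher calls of 46 in NB4, and no other list has more than 9 calls in either direction.

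The pattern of the group was compared with all other genes across the 12 libraries, after centring each gene within each line, with the mean profile of the 9 genes that passed the filter in both tables. The 10 genes most like it, of 8840 candidates, were SHMT2 (Pearson r = 0.989), INHBE (0.987), ADM2 (0.985), AARS1 (0.981), TMEM44 (0.980), SEL1L3 (0.977), DNHD1 (0.977), S100P (0.976), RHEX (0.975) and BCL7A (0.975). SHMT2, the mitochondrial serine hydroxymethyltransferase, read 45.5, 40.1 and 45.0 RPKM with DMSO and 33.3, 34.5 and 32.8 RPKM with FP54 in MOLM-13, and 59.1, 72.4 and 61.3 RPKM with DMSO and 123, 131 and 120.0 RPKM with FP54 in NB4. AARS1, the alanyl-tRNA synthetase, went from 25.1 ± 2.81 to 18.2 ± 2.06 RPKM in MOLM-13 and from 39.6 ± 1.39 to 94.8 ± 5.69 RPKM in NB4. In MOLM-13 neither SHMT2 (log2 −0.37, limma adjusted p = 0.0619) nor AARS1 (log2 −0.46, limma adjusted p = 0.0539) was called. The first 4 stand in the ATF4 target list and the other 6 in none of the lists. S100P, a calcium-binding protein, had mean levels of 18.0 and 7.57 RPKM in MOLM-13 and of 18.6 and 109 RPKM in NB4 with DMSO and FP54.

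Against the profile of the other genes of the group, r was 0.97 for TRIB3 and for ATF5, 0.95 for SESN2, 0.94 for ATF3, and 0.92 for CHAC1 and for DDIT4. It was lower for DDIT3 (0.82), CEBPG (0.65) and ATF4 (0.60). All these correlations share the same 12 libraries and the same treatment steps, and are given as a description.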

How the data were processed

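Deposited values were RPKM. According to the authors' methods and processing notes, reads of poly(A)-selected, stranded libraries were trimmed with Cutadapt 4.8, freed of duplicates with Clumpify, aligned to hg38 with STAR 2.7.11b and assigned to protein-coding genes of GENCODE by featureCounts 2.0.3, and the authors converted the result to RPKM. The gene length, the total and the strand setting used are not given in the sources used here. Multiplying RPKM by GENCODE v44 exonic lengths, found for 20330 of 20411 genes, gave whole reads (within 0.05, up to 50 reads) for 98.5 to 99.3% of low values, which yielded the library totals.

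Genes whose mean RPKM reached 1 in a line entered a limma 3.58.1 fit of log2(RPKM + 0.1) there (R 4.3.3, lmFit, eBayes with trend). A call needed an unadjusted p under 0.01 together with a log2 change of 0.5 or more. Adjusted p-values are Benjamini-Hochberg values over all genes tested. The difference between lines was an interaction in 1 model of the 12 libraries, at an adjusted p below 0.05. The fits were tested on simulated data. Summaries used Python 3.11.15, numpy 2.4.6, pandas 2.3.3 and matplotlib 3.10.9.

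The genes and lists were chosen with earlier results of these data known. Genes named are the 10 of the group, the called genes with the largest changes of each list in each line and direction (up to 5 for ATF4 targets, up to 3 for other lists), all paralogs, the 10 most similar genes, FTO and markers. One marker of the lymphoid, erythroid and epithelial list is not reported here. NUP62, IL4I1, MARS1, MBD6 and KLHL24 were named after their values were seen. Alternatives were other pseudocounts, filters and scalings, limma-voom on recovered reads, eBayes without trend, an adjusted p cutoff, a replicate block and leaving out each library. Subtracting the olfactory receptor level was chosen after seeing the data. Promoter sequences are from RefSeq (GRCh38.p14).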

Additional observations from a re-analysis of the deposited data

Results flagged for a closer look

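The effect of FP54 differed between NB4 and MOLM-13, by the limma interaction at an adjusted p below 0.05, in 44 of the 46 ATF4 target genes tested in both lines, in 16 of 31 other bZIP factors, in 7 of 17 p53 targets, in 5 of 22 ER stress genes, in 4 of 18 eIF2 pathway genes, in 2 of 16 mTORC1 genes and in 1 of 4 paralogs. The paralog was SESN3. The share over all genes tested was 14.2%. The lists were written with earlier results of these data known, so these counts are a description.

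Within the group of 10, every FP54 library lay below every DMSO library in MOLM-13 and above every one in NB4 for 5 genes, and this difference was not tested because it chose the genes. The NB4 change minus the MOLM-13 change was 3.89 for ATF5, 3.38 for TRIB3, 2.63 for ATF3, 2.63 for SESN2 and 1.27 for CEBPG on the log2 scale. Groups held 3 libraries, too few for a check of single outlying libraries.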

How the results depend on the processing

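No fitted change of the 10 genes switched sign under the settings run, except ATF4 in MOLM-13 (0.0069 without FP54 replicate 3). ATF4 targets called ranged from 20 to 28 lower in MOLM-13, from 26 to 34 higher in NB4 and from 38 to 46 for the interaction over all settings. Quantile normalization gave 0 targets lower in NB4, and limma-voom gave 1 target higher in MOLM-13. The cause was not tested.

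Counts over all genes depended more on the settings. Without a filter 4967 genes were called higher in NB4 and 3964 passed the interaction, with more genes tested. At a mean RPKM of at least 5, 560 were lower and 509 higher in MOLM-13, 789 were higher in NB4 and 633 passed the interaction, with fewer genes tested. In NB4 the main split was 1050 lower and 1834 higher, against 1328 and 1609 with median-ratio scaling and 1363 and 1280 with quantile normalization. The median log2 fold change of all genes there was 0.07, 0.0062 and −0.03 in the same order.

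Leaving out 1 library at a time gave 462 to 1213 lower and 540 to 1122 higher genes in MOLM-13, 995 to 1102 lower and 1661 to 2165 higher in NB4, and 807 to 1494 for the interaction. For targets it gave 20 to 28 lower and 0 to 1 higher in MOLM-13, 0 to 1 lower and 31 to 33 higher in NB4, and 39 to 44 for the interaction. The lower count in MOLM-13, 878 with all libraries, was 545 when DMSO replicate 1 was left out, 462 for DMSO replicate 3 and 503 for FP54 replicate 1. The higher count, 903, was 593 when DMSO replicate 3 and 540 when FP54 replicate 1 was left out. The interaction count, 1258, was 807 without NB4 FP54 replicate 2 and 812 without NB4 FP54 replicate 3. The target called higher in MOLM-13 appeared without DMSO replicate 2, and the target called lower in NB4 was lost without DMSO replicate 1 or 3.

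Replicate numbers did not pair the libraries. Correlations of same-numbered deviations were −0.26, −0.13 and −0.06 in MOLM-13 and −0.14, 0.07 and 0.12 in NB4. In MOLM-13, DMSO replicates 1, 2 and 3 correlated best with FP54 replicates 3, 1 and 2 (r = 0.59, 0.49 and 0.47). In NB4 not every library correlated best with its own number. With a replicate block 880 genes were lower and 817 higher in MOLM-13, 1050 and 1862 in NB4, and 899 passed the interaction, while 25 targets were lower in MOLM-13, 32 higher in NB4 and 40 passed the interaction.

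Low levels limit some values. In NB4 the log2 fold change of NUPR1 ran from 0.44 to 4.91 between pseudocounts of 1 and 0.01 RPKM and was 2.00 with the olfactory receptor level subtracted, and that of CHAC1 ran from 1.28 to 2.85. With a pseudocount of 1, ATF3 was at 1.29 and SESN2 at 1.58.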
